A study of Mus musculus with 54 samples.

Results

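The 43 genes described here encode the nuclear-made proteins that read out mitochondrial DNA (mtDNA) in mouse tissue, and they were chosen by name, as 43 of the 54356 genes listed in the heart and liver tables. They comprise 15 mitochondrial aminoacyl-tRNA synthetases, 3 subunits of the glutamyl-tRNA amidotransferase, 3 initiation, 4 elongation and 4 release and recycling factors, 4 mRNA-bound and membrane factors, 5 transcription and 4 replication factors, and 1 tRNA-processing enzyme. RNA was measured in whole hearts and livers of male 20-week-old C57BL/6 mice fed a high-fat diet in which 42% of the energy came from fat. The diet was common to every group, wild types included. The 3 genotypes were compared, with n = 3 mice each. Wild-type littermates were Mrps12+/+ (WT), mice homozygous for an error-prone mutation of the mitochondrial ribosomal protein were Mrps12ep/ep (EP), and mice homozygous for a hyper-accurate mutation were Mrps12ha/ha (HA). The mice were homozygous throughout, so no cell type of an organ was singled out. The comparison asks whether the machinery that supplies charged tRNAs, translation factors and mtDNA transcripts differed in level between mice whose mitochondrial ribosomes differ in accuracy.

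Mitochondria keep a small genome that encodes core subunits of the respiratory chain, and every protein needed to copy, transcribe and translate it is made in the cytosol from nuclear genes. TFAM packages and bends mtDNA, POLRMT transcribes it together with TFB2M and TEFM, and LRPPRC with SLIRP keeps the mRNAs stable until the mitochondrial ribosome, of which MRPS12 is a small-subunit protein at the decoding centre, reads them. In heart, where the respiratory chain supplies nearly all ATP, loss of several of these factors causes cardiomyopathy.

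The table gave 1 column of DESeq2-normalized counts per mouse and tissue, and the whole reads behind them were recovered from the step size of the low values. The hearts held 11202864 to 51480512 reads and the livers 21238166 to 81518015. The fewest reads of any member in a library were 30, for Pars2 in liver EP mouse 3, and 35 in the hearts, for Polg2 in HA mouse 2, so counting error was small for all but the lowest genes. Every member had a mean of at least 10 normalized counts in both tissues and was tested. Heart HA mouse 2 was the shallowest library, and for many of the genes below it lay near WT while HA mice 1 and 3 did not. The pseudogene Gm15387 was at 0 in all 3 HA hearts, this one included, and between 314.3 and 679.2 in the WT and EP hearts, but it was at 682.1 to 1054 in the HA livers and so does not mark the genotype in both tissues. Its array weight in limma, 0.167, was the lowest of the 9 hearts. The markers of cardiomyocytes were high in all 9 hearts and those of hepatocytes in all 9 livers. The summed atrial markers of mice 1, 2 and 3 were 8107.5, 162740 and 118580 in WT hearts and 1682, 377881 and 92951 in EP hearts. In HA hearts they were 5215, 4551 and 10279. All 3 HA hearts were thus low, as were WT mouse 1 and EP mouse 1, while mice 2 and 3 of WT and EP were high. Erythroid markers made up 1.41% and 4.27% of the counts in heart HA mice 1 and 3, and between 0.286% and 0.750% in the other 7 hearts, HA mouse 2 included. The part of blood, atrial tissue and depth in the results below was not tested, and in whole organs fewer cells of a type and less RNA per cell cannot be told apart.

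The 43 genes spanned a wide range of levels. Levels were compared between genes as counts per kilobase of exon, scaled to the same total in every mouse. Tufm, the mitochondrial EF-Tu that brings charged tRNA to the ribosome, was first in both tissues, at a median level of 310.2 in heart (202.9 to 331.9 over the 9 mice) and 109 in liver (101 to 120). Gfm1, the translocase EF-G1, was second in both, at a median of 145 in heart and 50.2 in liver. The ranges of Tufm and Gfm1 did not overlap in either tissue. In heart Tfb2m, Taco1 and Lrpprc followed at 76.4, 74.1 and 62.1, and their ranges over the mice overlapped. The lowest were Polg2 at 1.98, Wars2 at 3.22 and Mars2 at 3.58 in heart, and Mars2 at 0.495 in liver. Tufm lay above 97.8% of the tested genes of the heart and Polg2 above 25.2%. The 2 tables were normalized separately, so these levels order genes within a tissue and not tissues within a gene. Tufm shared 58.2% of its 31-base stretches with the pseudogene Gm9755, Tfb2m 35.2% with Gm1818 and Rmnd1 21.6% with Gm5512, so reads of these genes can be split. The pseudogenes were listed at 0 in every library except for 24.4 of Gm9755 in liver EP mouse 3 and 18.2 of Gm5512 in heart WT mouse 3. Fars2 and Wars2 overlap non-coding genes annotated on the same strand, so their counts are uncertain to that extent.

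In the hearts of Mrps12ha/ha mice, factors for mitochondrial translation and transcription were lower in 2 of the 3 mice and near the wild type in the third. The largest differences were in Taco1, Gfm1 and Tfam. A smaller group, among them Polrmt, Fars2 and Slirp, was higher in the same 2 mice. With all 3 HA mice in the fit none of the 43 genes passed an adjusted p of 0.05 (limma, Benjamini-Hochberg over all tested genes), against 0.0311% of the 16057 genes tested. At an unadjusted p under 0.05 there were 11 of 43 members, 10 lower and 1 higher, against 19.7% of all genes, and limma-voom on the recovered reads called 0, with 17 members under that unadjusted level and 3874 of all 16057 genes. The median log2 fold change of the 43 genes was -0.21 and that of all tested genes -0.02. Of the 43, 31 had a negative value. In 8 of them every HA mouse was below every WT mouse, against 10% of all tested genes, and in 0 every HA mouse was above, against 11.1%. The 8 were Ears2, Mars2, Pars2, Wars2, Gatc, Gfm1, Tfb1m and Elac2. Some margins were only a few reads, as 1 read of HA mouse 2 was worth 3.02 normalized counts. HA mouse 2 and the lowest WT heart were at 1135.6 and 1137.7 for Gatc and at 235.6 and 240.9 for Wars2. They were at 253.7 and 260.4 for Tfb1m and at 138.9 and 146.2 for Pars2.

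**Figure D1:**
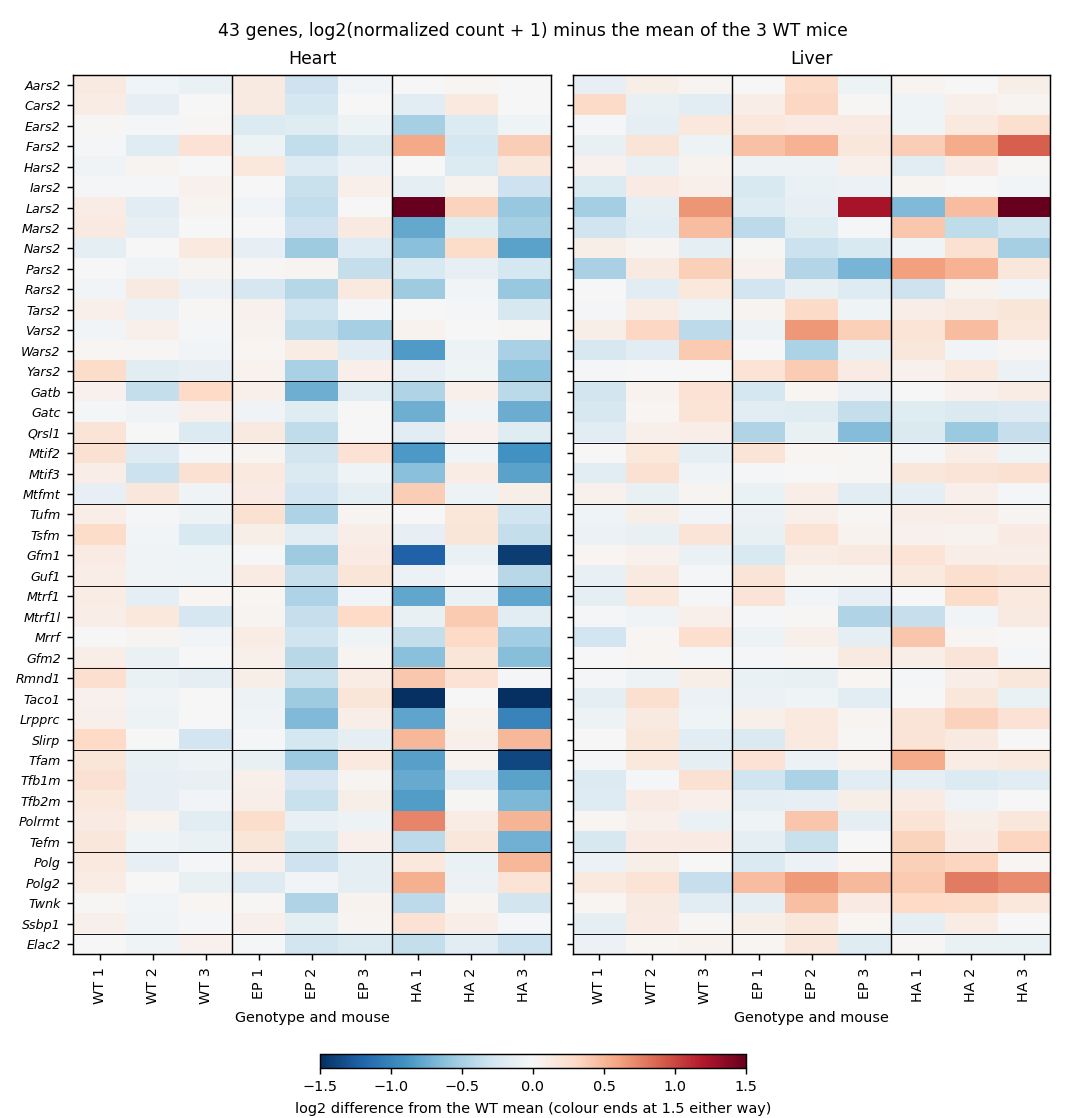
Each row is 1 of the 43 genes, grouped by role, and each column 1 mouse, with hearts on the left and livers on the right. Colour gives log2(normalized count + 1) minus the mean of the 3 wild-type mice of that tissue, and the columns of heart HA mice 1 and 3 and of heart EP mouse 2 are mostly blue (lower), while heart HA mouse 2 is close to white.

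The position of each mouse against the 3 wild types shows how uneven the group was. In HA mouse 1, 25 of the 43 genes lay below the lowest WT heart, against 39.3% of all tested genes, and 9 lay above the highest, against 37.7%. In HA mouse 3 the numbers were 29 below, against 37.6%, and 6 above, against 37%. In HA mouse 2 they were 10 below, against 28.6%, and 10 above, against 27.8%. As shares of the 43 genes, 58.1% in mouse 1 and 67.4% in mouse 3 were below all WT hearts and 23.3% in mouse 2. The median log2 difference of the members from the WT mean was -0.23 in mouse 1, 0.01 in mouse 2 and -0.36 in mouse 3.

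HA mouse 2 decided the calls. Leaving it out, limma called 18 members lower, which is 41.9% of the 43 against 14.8% of all tested genes, and 2 higher, which is 4.65% against 12.2%. Leaving out any of the other 5 mice of the comparison called 0. With weights estimated per library 21 members were called, against 34.7% of all genes. These weights gave HA mouse 2 the least weight of the 9 hearts (0.167), so they are not a separate check. The 18 lower genes included Mars2, Nars2, Rars2 and Wars2 of the synthetases, Gatc, the initiation factors Mtif2 and Mtif3, Gfm1, and the release and recycling factors Mtrf1, Mrrf and Gfm2. The others were the mRNA factors Taco1 and Lrpprc, Tfam, Tfb1m, Tfb2m and Tefm of the transcription group, and Elac2. The 2 higher genes were Fars2 and Polrmt. The fit without mouse 2 rests on 2 HA hearts. The mouse left out was the HA heart nearest WT in these same values, so the calls of this fit are not separate evidence of a change. The 2 HA hearts kept are also the 2 with the most erythroid transcripts. Their summed endothelial markers, 45733 and 39032, were the 2 highest of the 9 hearts, against 29576 in HA mouse 2 and 24659 to 31454 in WT. In all 3 HA hearts cardiomyocyte markers were above every WT heart (3237640 to 3668600 against at most 3111290) and mesothelial markers below (311.9 to 519.1 against at least 800.9). The part of these in the results was not tested.

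**Figure D2:**
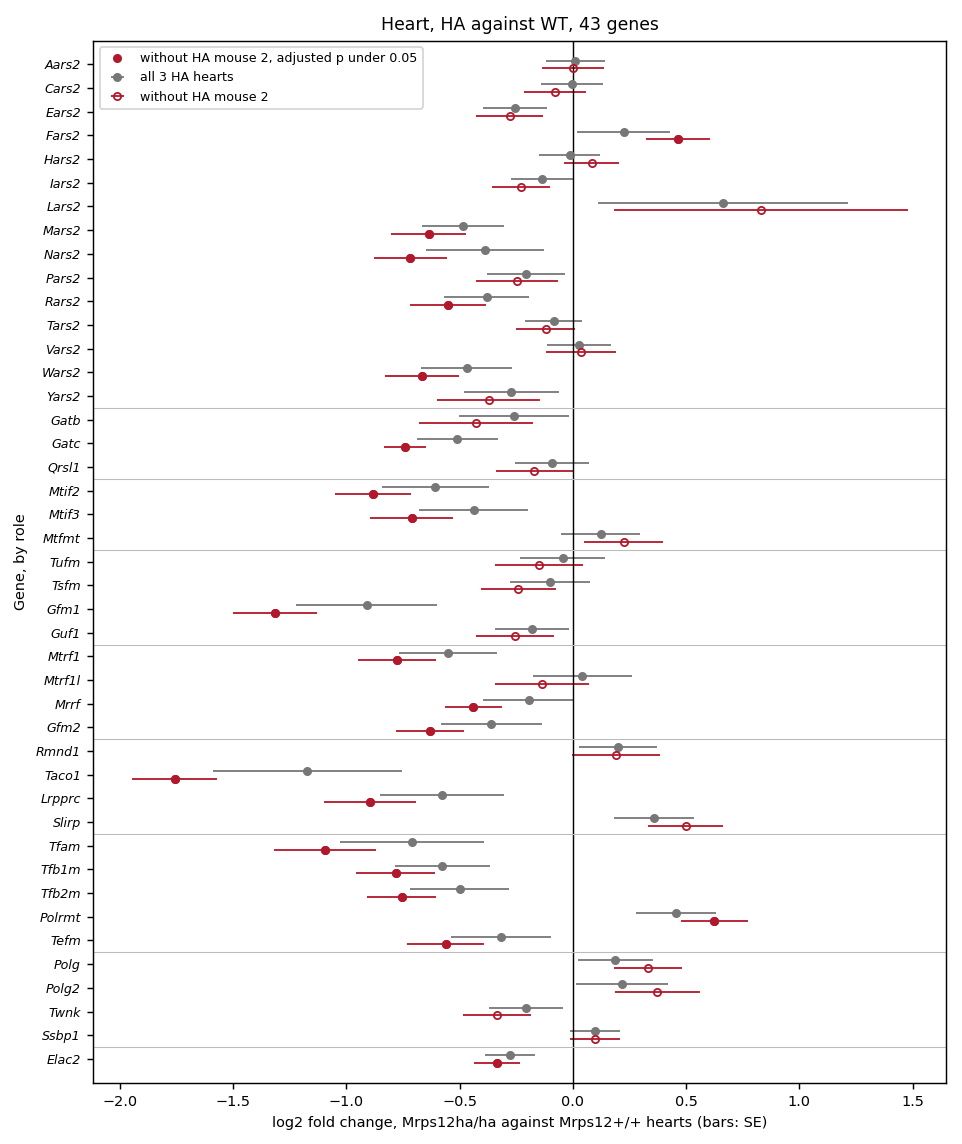
Log2 fold change of each of the 43 genes in HA against WT hearts, with all 3 HA mice (grey) and without HA mouse 2 (red, filled where the adjusted p was under 0.05); bars are standard errors. Leaving out the mouse moved Taco1 from -1.17 to -1.76 and Gfm1 from -0.91 to -1.31, and 20 red points are filled.

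Among the factors bound to mitochondrial mRNAs or to the membrane, Taco1 differed most. TACO1 activates translation of the mRNA for cytochrome c oxidase subunit I. Its normalized counts were 1373.5, 1265 and 1308 in the WT hearts, 1251, 908.7 and 1487 in the EP hearts and 364.5, 1314 and 413.6 in the HA hearts. HA mice 1 and 3 were below all other hearts and HA mouse 2 lay within the WT range. The log2 fold change of HA against WT was -1.17 ± 0.42 (SE from the fit of 3 genotypes, n = 3 mice each). The adjusted p was 0.215 (limma) and ran from 0.00242 to 0.541 over the alternatives. Lrpprc, whose product binds and stabilizes most mitochondrial mRNAs, had 6992, 6306 and 6689 in WT and 3832, 6925 and 3336 in HA hearts. Slirp, which encodes the protein partner of LRPPRC, went the other way in the same mice. Its counts were 988.6, 798.6 and 658.5 in WT, 792.5, 672.1 and 731.1 in EP and 1136, 848.6 and 1135.5 in HA hearts. The members of this pair are known as a complex, and here their log2 fold changes were -0.58 ± 0.27 for Lrpprc and 0.36 ± 0.18 for Slirp, with HA and WT overlapping in both. Rmnd1, an inner-membrane protein needed for mitochondrial translation, had a log2 fold change of 0.20 ± 0.17.

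Of the elongation factors Gfm1 stood apart from its group. Gfm1 moves the ribosome along the mRNA after each peptide bond. It had 9297, 8221 and 8172.5 counts in WT, 8487, 5884 and 9293 in EP and 3702, 7964 and 3188 in HA hearts. All 3 HA hearts were below all 3 WT hearts, but HA mouse 2 by a small margin. The means were 8563 ± 635 in WT and 4951 ± 2622 in HA (SD, n = 3), and the log2 fold change was -0.91 ± 0.31 with an adjusted p of 0.213 (limma; 0.00333 to 0.540 over the alternatives). The other 3 elongation factors, Tufm, its exchange factor Tsfm and Guf1, an EF4-type GTPase, had log2 fold changes of -0.05, -0.10 and -0.18.

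Among initiation factors Mtif2, the GTPase that places the initiator tRNA, had 2008, 1498 and 1678.5 counts in WT, 1767, 1412 and 1992.5 in EP and 944.3, 1652 and 915.6 in HA hearts. HA mice 1 and 3 were the lowest of the 9 hearts. Its log2 fold change of HA against WT was -0.61 ± 0.24 (adjusted p = 0.223, limma; 0.00630 to 0.548 over the alternatives). Mtif3, a factor that helps free the small subunit, followed the same order with -0.44, and Mtfmt, which formylates the initiator methionyl-tRNA, had 0.12. For termination, the log2 fold changes were -0.55 for Mtrf1 and 0.04 for Mtrf1l, which are both release factors, -0.19 for the recycling factor Mrrf and -0.36 for its partner GTPase Gfm2.

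The tRNA-charging genes were mixed. Of the 15 synthetases 11 had a negative and 4 a positive log2 fold change, with a median of -0.13. Without HA mouse 2 the signs were 10 and 5 and the median -0.23. Mars2, which charges the methionyl-tRNA, had 583, 487.1 and 528.9 counts in WT, 535.9, 428 and 583.9 in EP and 311.1, 468.1 and 375.5 in HA hearts. Its HA and WT values did not overlap, and the log2 fold change was -0.48 ± 0.18 (adjusted p = 0.220, limma; 0.0180 to 0.543 over the alternatives). Wars2 and Rars2, for tryptophan and arginine, had -0.47 and -0.38. The log2 fold changes of Nars2, Yars2, Ears2, Pars2 and Iars2 lay between -0.39 and -0.13. Those of Tars2, Hars2, Cars2, Aars2 and Vars2 lay between -0.09 and 0.03. Fars2, for phenylalanine, was above every WT heart in HA mice 1 and 3, with 1696, 1536 and 2014 in WT and 2571.5, 1453 and 2237 in HA hearts. Gatc is the small subunit of the enzyme that turns glutamyl-tRNA into glutaminyl-tRNA. It had 1156, 1138 and 1246 counts in WT, 1134, 1043 and 1176 in EP and 706.8, 1136 and 704 in HA hearts, a log2 fold change of -0.51 ± 0.18 (adjusted p = 0.213, limma; 0.00310 to 0.540 over the alternatives). The HA and WT hearts did not overlap, though HA mouse 2 was only just outside. The other subunits, Gatb and Qrsl1, had -0.26 and -0.09.

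The transcription machinery split in 2 directions. Tfam had 1701, 1389 and 1421 counts in WT, 1383, 1029 and 1653 in EP and 848.6, 1555 and 578.8 in HA hearts, a log2 fold change of -0.71 ± 0.32. Tfb2m, the factor that melts the promoter, had -0.50 ± 0.22, and Tefm, the elongation factor of the polymerase, -0.32. Polrmt, the polymerase itself, had 1353, 1287 and 1102 in WT, 1496, 1155 and 1181.5 in EP and 2073, 1344 and 1772 in HA hearts, a log2 fold change of 0.45 ± 0.18. So in HA mice 1 and 3 Polrmt was above every other heart while Tfam and Tfb2m were below every other heart. Without HA mouse 2, Tfam, Tfb1m, Tfb2m and Tefm were called lower and Polrmt higher, where 14.8% of all genes were called lower and 12.2% higher. With all 3 HA hearts in the fit 0 of the 5 genes of this group were called. Tfb1m is counted in this group, though its product methylates the small-subunit rRNA. It had 334.1, 260.4 and 262.9 counts in WT, 299.2, 237.8 and 291.5 in EP and 167.5, 253.7 and 161.8 in HA hearts. Its HA and WT hearts did not overlap, and the log2 fold change was -0.58 ± 0.21 (adjusted p = 0.220, limma; 0.00761 to 0.540 over the alternatives).

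**Figure D3:**
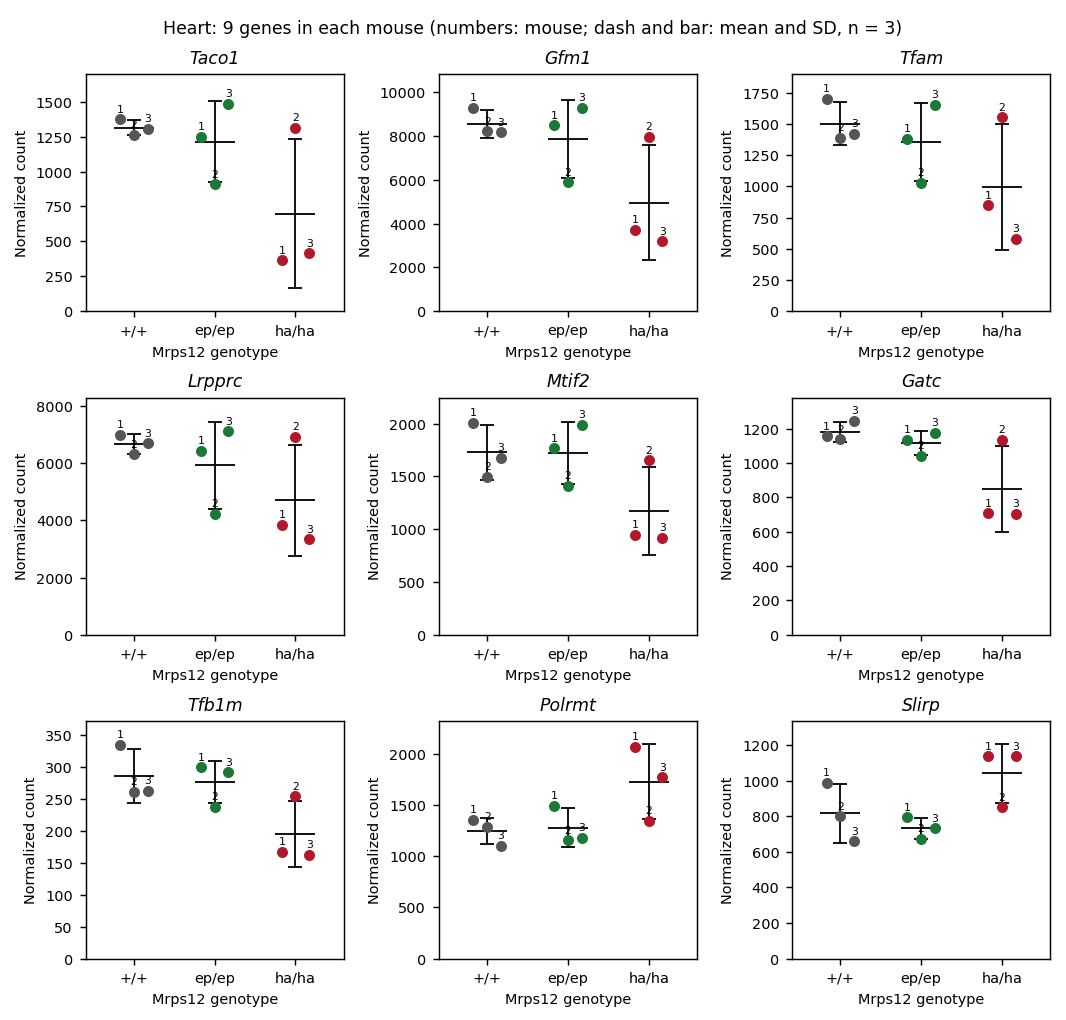
Normalized counts of 9 genes in each of the 9 hearts, with mice numbered 1 to 3 within a genotype and the mean and SD of 3 mice as a dash and bar. In the HA group mice 1 and 3 sit together, away from the WT mice, and mouse 2 sits at or near them, for example at 1314 against 364.5 and 413.6 for Taco1.

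Of the replication genes, Polg and Polg2, the catalytic and accessory subunits of the mtDNA polymerase, had log2 fold changes of 0.19 and 0.22 in HA against WT hearts. The helicase Twnk had -0.21 and the single-strand binding protein Ssbp1 0.10, and without HA mouse 2 none of the 4 was called. Elac2, which trims the 3′ ends of tRNAs, had 1109, 1062 and 1163.5 counts in WT, 1087, 915.1 and 952.6 in EP and 868.8, 990.6 and 890.7 in HA hearts. All HA hearts were below all WT hearts, with a log2 fold change of -0.28 ± 0.11 (adjusted p = 0.229, limma; 0.0224 to 0.542 over the alternatives).

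In the hearts of Mrps12ep/ep mice 40 of the 43 log2 fold changes against WT were negative, but small, from -0.28 to 0.03 with a median of -0.09 (all tested genes: -0.01). No member passed the adjusted or the unadjusted threshold of 0.05 in limma, against 0% and 1.69% of all genes, and limma-voom called 0 as well. A limma fit of only the EP and WT hearts, with no HA hearts in its spread, also had 0 members under either threshold. The negative values rested on EP mouse 2. It was below the lowest WT heart for 36 of the 43 genes, against 32.4% of all tested genes, and above the highest for 1, against 32.2%. In EP mouse 1 there were 6 below, against 26.9%, and 8 above, against 24.3%. In EP mouse 3 there were 12 below, against 24.2%, and 8 above, against 23.4%. Without EP mouse 2 the median over the members was 0.03. That mouse also had the most atrial transcripts of the 9 hearts. Its summed fibroblast (53774), mesothelial (2433) and macrophage markers (3243.5) were the highest of the 9, against at most 39574, 1562 and 2323 in the others, and its cardiomyocyte markers the lowest. Their part in the lower values was not tested. The 5 genes with the smallest p were Vars2, Elac2, Gatb, Ears2 and Fars2. Vars2, for valine, had 1191, 1286 and 1196 counts in WT and 1273, 937.1 and 869.1 in EP hearts, a log2 fold change of -0.27 ± 0.14 with a 95% interval of -0.59 to 0.05 (adjusted p = 1, limma; 0.198 to 1 over the alternatives). Gatb had 1788, 1339 and 2104 in WT and 1814, 1030.5 and 1537 in EP hearts. Ears2, for glutamate, was the 1 member whose EP hearts (334.8, 341.6 and 366.9) were all below the WT hearts (391, 378.1 and 391.8), against 3.64% of all genes, and 0 members were all above, against 4.4%. The log2 fold changes of Elac2, Gatb, Ears2 and Fars2 ranged from -0.27 to -0.15, each with an interval that included 0.

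Between HA and EP hearts no member passed the test (limma adjusted p; 0.0249% of all genes did). At an unadjusted p under 0.05 there were 9 members, 7 lower and 2 higher, against 17.9% of all genes, and limma-voom called 0. The median log2 fold change of the members was -0.10 (all tested genes: -0.02). Slirp was the 1 gene whose HA hearts were all above the EP hearts, against 8.77% of all genes, and 0 were all below, against 7.82%. Slirp also had the smallest p, with a log2 fold change of 0.50 ± 0.18 (adjusted p = 0.249, limma; 0.00717 to 0.540 over the alternatives). The values for Mtif2, Tfb1m, Taco1 and Gfm1 were -0.60 ± 0.24, -0.53 ± 0.21, -1.03 ± 0.42 and -0.77 ± 0.31. Without HA mouse 2, 14 members were called lower, against 12.9% of all genes, and 3 higher (Fars2, Slirp and Polrmt), against 10.4%. With library weights 25 were called, against 39.3%. The comparisons of HA with EP and with WT share the 3 HA hearts.

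In HA against WT livers 32 of 43 log2 fold changes were positive, with a median of 0.08 (all tested genes: -0.02), and none passed the test (limma adjusted p; 0.00653% of 15314 genes did). At an unadjusted p under 0.05 there were 3 members, all higher, against 14.1% of all genes, and limma-voom called 0. In liver, 8 members had all HA livers above all WT livers, which is 18.6% of the 43 against 10% of all genes: Fars2, Gfm1, Guf1, Lrpprc, Polrmt, Tefm, Polg2 and Twnk. The margins were small for Gfm1, Tefm, Twnk, Guf1 and Polrmt. The lowest HA and highest WT livers were at 412.9 and 411.7 for Tefm and at 1403.6 and 1391.6 for Twnk. They were at 690.2 and 683.3 for Guf1, at 1116.6 and 1103 for Polrmt and at 5216 and 5109 for Gfm1. Qrsl1 was the 1 member with all HA livers below, against 9.81%. The WT livers were themselves uneven. Summed skeletal muscle markers were 17126 and 21116 in WT mice 1 and 2 and at most 146.5 in the other 7 livers. Acute phase genes summed to 1480120 in WT mouse 3 and to at most 210448 in the other 8 livers. The part of both in the results was not tested.

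The 3 genes behind the liver counts were Fars2, Polg2 and Lrpprc. Fars2 had 1049, 1299 and 1079 counts in WT, 1544, 1638 and 1283 in EP and 1473, 1671.5 and 2112 in HA livers. All HA livers were above all WT livers, and 2 of 3 EP livers were. The log2 fold change of HA against WT was 0.61 ± 0.16 with an adjusted p of 0.159 (limma; 0.105 to 0.394 over the alternatives). Polg2, the processivity subunit of the polymerase, had 283.3, 294.3 and 201.4 counts in WT, 352, 400.4 and 359.5 in EP and 335.6, 441.6 and 418 in HA livers. Every mutant liver of either genotype was above every WT liver. Its log2 fold change was 0.63 ± 0.18 in HA (adjusted p = 0.195, limma; 0.133 to 0.493 over the alternatives). Lrpprc had 3843, 4477 and 3894.5 counts in WT, 4281, 4514 and 4184 in EP and 4660, 5152 and 4718 in HA livers, the HA livers being the 3 highest of the 9. The log2 fold change was 0.25 ± 0.09 (adjusted p = 0.269, limma; 0.141 to 0.568 over the alternatives). Polg had 1928, 2185 and 2045.5 in WT and 2620, 2562 and 2089 in HA livers, and Qrsl1, the catalytic subunit of the amidotransferase, 186.1, 220.8 and 225.8 in WT and 180.9, 142 and 165.3 in HA livers. For those 2 genes the 95% intervals of the log2 fold change, -0.02 to 0.49 and -0.81 to 0.06, included 0.

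**Figure D4:**
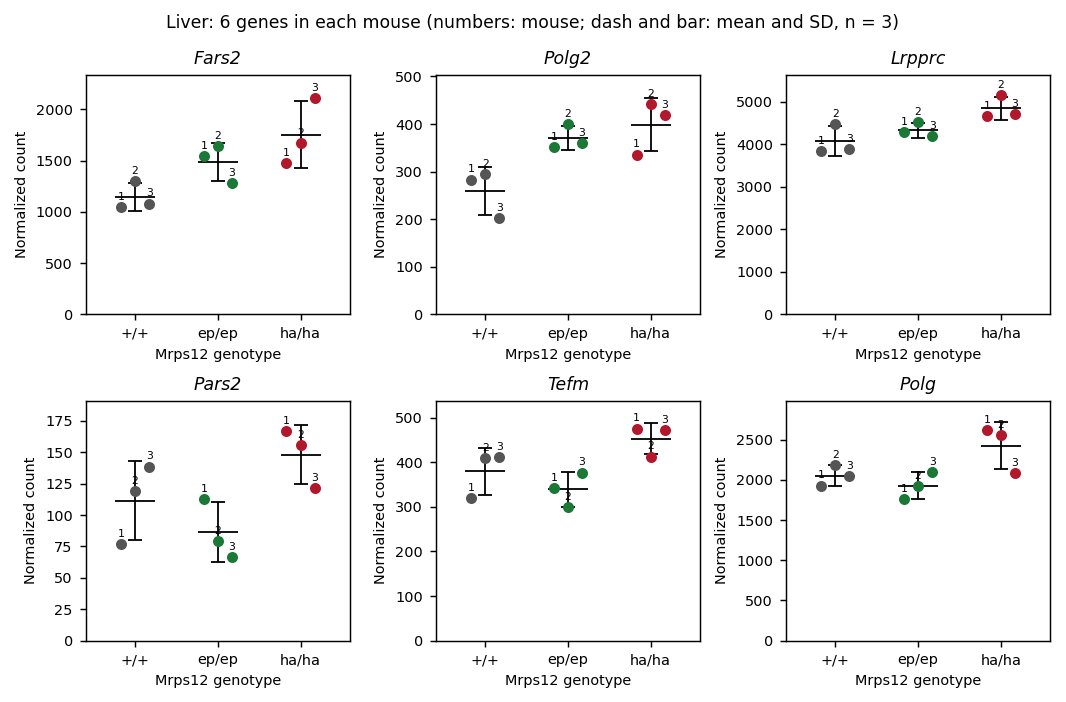
Normalized counts of 6 genes in each of the 9 livers, with mice numbered 1 to 3 within a genotype and the mean and SD of 3 mice as a dash and bar. For Polg2 all 6 mutant livers lie between 335.6 and 441.6, above the WT livers at 201.4 to 294.3, and for Lrpprc the 3 HA livers are the highest.

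In EP against WT livers the members were evenly spread, with 22 positive and 21 negative log2 fold changes and a median of 0.003. No member passed the adjusted threshold (limma; 0.00653% of all genes did), and 2 had an unadjusted p under 0.05, Polg2 and Fars2, against 9.74% of all genes. limma-voom called 0. The log2 fold changes were 0.53 ± 0.18 for Polg2 (adjusted p = 0.456; 0.204 to 0.794 over the alternatives) and 0.38 ± 0.16 for Fars2. In all, 2 members had all EP livers above all WT livers, against 6.49% of all genes, and 0 had all below, against 6.28%. Beside Polg2 this was Yars2, for tyrosine, at 549.9, 556.3 and 559.3 in WT and 639.7, 723.5 and 605.9 in EP livers, a log2 fold change of 0.24 ± 0.11. The next genes were lower, Qrsl1 with 153.7, 193.7 and 133.2 in EP livers (-0.41 ± 0.19) and Tfb1m with 331.6, 378.4 and 446.8 in WT and 309.7, 275.4 and 344 in EP livers (-0.31 ± 0.15). The 95% intervals of Yars2, Qrsl1 and Tfb1m included 0.

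Between the mutants, 35 of the 43 log2 fold changes of HA against EP livers were positive with a median of 0.10 (all tested genes: -0.002). None passed the adjusted threshold (limma; 0.00653% of all genes did), 3 had an unadjusted p under 0.05, against 8.62%, and limma-voom called 0. In all, 5 members had all HA livers above all EP livers, against 8.82% of all genes, and 0 had all below, against 9.01%. The 5 were Iars2, Lrpprc, Mtif3, Pars2 and Tefm. Pars2, for proline, had 77, 118.9 and 138.6 counts in WT, 112.9, 79.5 and 66.6 in EP and 166.6, 155.6 and 121.6 in HA livers, a log2 fold change of 0.79 ± 0.29 at low counts (adjusted p = 0.519, limma; 0.226 to 0.912 over the alternatives). Tefm had 341.8, 299.2 and 377.3 in EP and 476, 412.9 and 472 in HA livers, a difference of 0.42 ± 0.15. Polg had 1759, 1927 and 2100 in EP livers, so that HA mouse 3 fell within the EP range, and a log2 fold change of 0.33 ± 0.11. Mtif3 had 1174, 1197 and 1221 in EP and 1357, 1376 and 1403 in HA livers, with narrow groups but a log2 fold change of only 0.20 ± 0.11, and Lrpprc 0.16 ± 0.09.

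The difference between the tissues was itself tested, as the HA effect in heart minus that in liver over the 14070 genes measured in both. None of the 43 genes passed the adjusted threshold (limma; 0.0711% of all genes did), 7 had an unadjusted p under 0.05, all lower in heart, against 13.7%, and the median difference was -0.31 (all genes: 0.003). The 5 with the smallest p were Gfm1 at -1.04 ± 0.36, Lrpprc at -0.83 ± 0.31, Mtrf1 at -0.69 ± 0.27, Tfam at -0.98 ± 0.38 and Taco1 at -1.20 ± 0.48. Gfm1 had 4969, 5109 and 4562 counts in WT and 5610, 5225 and 5216 in HA livers. All HA livers were thus above and all HA hearts below their wild types, with a small margin in each tissue. Taco1 had 590.5, 769.8 and 612.3 in WT and 656.9, 735.8 and 607.2 in HA livers, which overlapped. Tfam had 1612, 1825 and 1488 in WT and 2409, 1761 and 1804 in HA livers, which overlapped too. Without heart HA mouse 2 the difference was called for 11 members, against 7.16% of all genes, all lower in heart, and for 0 higher, against 4.89%. With library weights 11 were called, against 14.6%. The 11 without the mouse were Gatc, Mtif2, Mtif3, Gfm1, Mtrf1, Gfm2, Taco1, Lrpprc, Tfam, Tfb2m and Tefm. For EP against WT the same test called 0 members (0.00711% of all genes), with 2, Polg2 and Fars2, at an unadjusted p under 0.05, against 5.57%. The labels do not say whether a heart and a liver with the same number came from the same mouse.

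**Figure D5:**
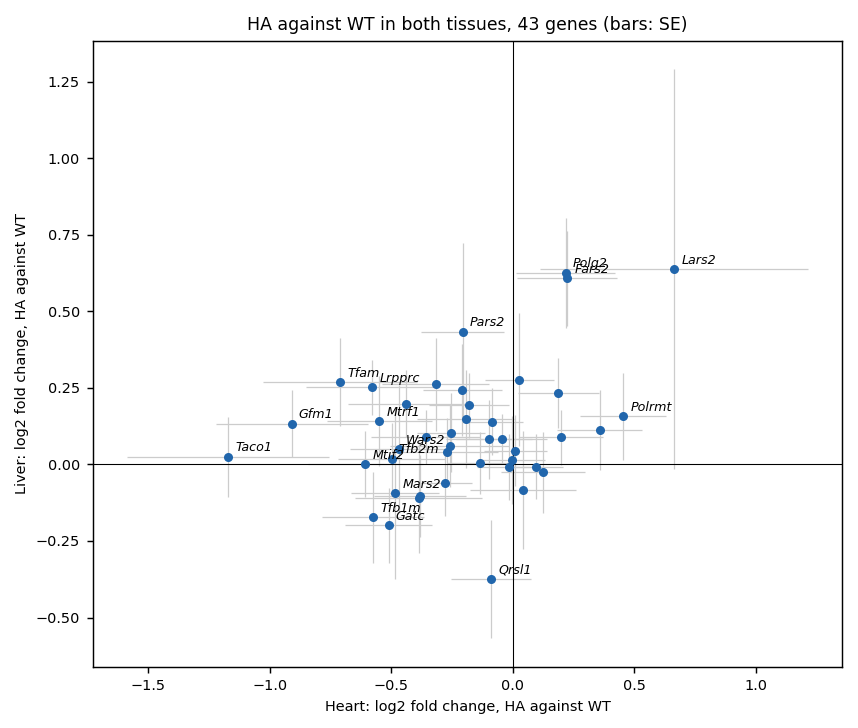
Log2 fold change of HA against WT for each of the 43 genes in heart (horizontal) and liver (vertical), with standard errors as bars. Taco1, Gfm1 and Tfam lie far to the left at -1.17, -0.91 and -0.71, while the lowest value in liver is -0.37, for Qrsl1.

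Lars2, the leucine synthetase, varied widely between mice of the same genotype. Its counts were 2411, 1988 and 2295.5 in WT, 2154, 1723 and 2207 in EP and 10446, 2800 and 1494.5 in HA hearts. In liver they were 1468, 1877 and 3286 in WT, 1828, 1917 and 4929 in EP and 1318.5, 2874 and 9006 in HA mice. Single libraries in 4 of the 6 groups were thus well above the others. The log2 fold change of HA against WT was 0.66 in heart, with a 95% interval of -0.58 to 1.91, and 0.64 in liver, with one of -0.83 to 2.11. Of the 31-base stretches of its transcripts 0.869% occurred in other genes annotated in GENCODE M21. Sequence shared with RNA outside that annotation was not searched for, and its part in the spread of Lars2 was not tested.

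To show what the promoters of these genes have in common, the 300-base windows that RefSeq gives (GRCm38.p6, from 250 bases before the start) were searched for 7 fixed motifs on both strands. Windows were matched for 38 of the 43 members, all but Hars2, Pars2, Gatb, Mtif3 and Guf1. CCGGAAG, the core recognised by ETS factors such as GABPA, was in the windows of 15 of the 38, against 9.93% of all 27025 genes with a window. GGGCGG, the SP1 core, was in 27, against 38.2%, CGCATGCG (NRF1) in 4, against 2.07%, AAGATGGC (YY1) in 4, against 3.19%, and CACGTG (E-box) in 2, against 8.09%. TGACGTCA (CREB) and TGATGCAA (ATF4 with CEBP) were in 0, against 2.03% and 1.03%. The 27025 genes were not limited to those tested in heart and liver, while every member was. Genes matched to the members for expression were not searched, so these shares do not show what is particular to the members. The stretches below show a CCGGAAG match, in capitals, of 4 genes that were low in HA hearts 1 and 3 and of 2 that were high. Further matches in the windows of Mtif2 and Slirp are not shown. Each reads 5′ to 3′ on the gene's own strand, and CTTCCGG is the same motif on the other strand.
Tfam, chr10:71238060-71238116, minus strand: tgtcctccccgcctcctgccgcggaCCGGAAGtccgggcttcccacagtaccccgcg
Gfm1, chr3:67430102-67430131, plus strand: ctgaccttcctcCCGGAAGtgctcctgcgg
Mtif2, chr11:29526361-29526396, plus strand: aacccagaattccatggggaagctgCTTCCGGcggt
Mars2, chr1:55237129-55237176, plus strand: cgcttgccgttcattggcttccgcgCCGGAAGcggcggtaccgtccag
Polrmt, chr10:79746593-79746649, minus strand: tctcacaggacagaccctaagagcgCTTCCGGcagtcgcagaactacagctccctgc
Slirp, chr12:87443823-87443879, plus strand: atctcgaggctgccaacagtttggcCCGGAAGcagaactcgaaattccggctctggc
The motif was thus present in genes that differed in both directions. Of the 17 matched genes called lower without HA mouse 2 it was in 6, and of the other 21 matched members in 9. Taco1, which differed most, did not hold these letters in its window.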

How the data were processed

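RNA of 18 organs (9 hearts and 9 livers) was sequenced, with 54 libraries in the labels, 3 technical libraries per mouse and tissue. The authors trimmed reads (Trim Galore 0.4.1, cutadapt 1.18), quantified genes with Salmon 1.1.0 on GENCODE M21 (GRCm38.p6), left out mitochondrial transcripts, which are not analysed here, and deposited DESeq2-normalized counts per tissue, 1 column per mouse, taken as the pool of its technical libraries. Tables of the authors' own comparisons hold fold changes and p-values and were not used. Groups came from the sample titles.

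Low values in every column were whole multiples of 1 step (100% within 0.05 normalized counts), from which reads were recovered. Values were analysed as log2(normalized count + 1) in limma 3.58.1 (R 4.3.3) with lmFit and trended eBayes, the 3 genotypes of a tissue in 1 fit, on genes with a mean of at least 10, with Benjamini-Hochberg adjustment over all of them and a threshold of 0.05. Fold changes on this scale understate those of low genes. The difference between tissues was a contrast over all 6 groups. The EP and HA comparisons share the WT mice. p-values and standard errors weigh a difference against the spread between mice, pooled over all genotypes in the fit, with 3 mice each. A genotype with uneven mice thus also affects comparisons it is not part of. All 43 members are named. Values per mouse went to the 5 with the smallest p in each comparison, and to Tfam, Lrpprc, Polrmt, Fars2, Lars2 and others singled out after their values were seen. The members and lists were chosen with earlier results of these data known. The fit was tested on simulated heart counts with the same dispersion for every gene and alike mice within a genotype. That test does not cover an uneven group such as the HA hearts. Shared sequence was counted as 31-base stretches in GENCODE M21 transcripts. Counting was strand-aware, so genes on the opposite strand were not added. Alternatives are given in the closing section.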

Additional observations from a re-analysis of the deposited data

Results flagged for a closer look

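Gfm1 in HA against WT mice was singled out because all 3 hearts lay below and all 3 livers above their wild types. The difference between the tissues, heart minus liver, was -1.04 on the log2 scale with an adjusted p of 0.242 (limma), which ran from 0.00274 to 0.490 over the alternatives. In heart the margin of HA mouse 2 was small, 7964 against 8172.5 in the lowest WT heart. In liver it was small too, 5216 in the lowest HA liver against 5109 in the highest WT liver.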

How the results depend on the processing

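No member was called in the main comparisons, and this changed only when heart HA mouse 2 was left out or libraries were weighted. With array weights 21 members were called in heart HA against WT, 25 in heart HA against EP and 11 in the difference between tissues for HA. Leaving out 1 mouse at a time, the number called ran from 0 to 20, 0 to 17 and 0 to 11 in the same comparisons, the highest without heart HA mouse 2, and stayed at 0 in the other 5. The other alternatives (pseudocounts of 0.1 and 8, quantile normalization, no filter or one at a mean of 50, values re-centred on the median, robust eBayes) called 0, as did limma-voom and fits of only the genotypes compared, which were run within tissues but not for the difference between them. The median log2 fold change of members in liver HA against WT was 0.012 in limma-voom, against 0.083, while that of all genes was -0.10 against -0.02. The members' median in liver HA against EP ran from 0.0484 to 0.124 when a mouse was left out. In heart the members' median ran from -0.28 to -0.11 for HA against WT, from -0.16 to 0.03 for EP against WT and from -0.19 to 0.02 for HA against EP. With the replicate number as a replicate block 0 members were called, those at an unadjusted p under 0.05 in heart HA against WT went from 11 to 7, and the medians stayed at -0.21 in heart HA against WT and 0.08 in liver. The correlations of same-numbered mice ran from -0.23 to 0.58 in heart and from -0.13 to 0.16 in liver, and those of mice with different numbers from -0.59 to 0.35 and from -0.29 to 0.16. Not every same-numbered pair was above 0.1, so the numbers were not taken to pair the mice, though WT and EP hearts numbered 1 (0.58) and 2 (0.41) correlated above any differently numbered pair. Summed atrial markers were 8107.5 and 1682 in WT and EP hearts 1 and 162740 and 377881 in hearts 2. In hearts 3, which correlated at -0.07, they were 118580 and 92951. The part of atrial tissue in these correlations was not tested. Count models and TMM scaling were planned and not run, and limma-voom was the only test of the recovered reads. With 3 mice a group the 95% interval of a member's log2 fold change was 0.42 either side in heart and 0.29 in liver at the median over the members. These widths are from the fit of 3 genotypes. With only the 2 genotypes compared they were 0.35 for EP against WT, 0.45 for HA against WT and 0.50 for HA against EP hearts. In liver they were 0.33, 0.30 and 0.28 in the same order.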

Other observations

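A list of 66 related genes of mitochondrial RNA processing, modification, ribosome assembly and mtDNA maintenance was tested in the same fits, and none was called in any comparison (limma adjusted p; limma-voom also called 0 where it was run). In HA against WT hearts 12 had an unadjusted p under 0.05, 9 lower and 3 higher, against 19.7% of all genes, and the median log2 fold change was -0.05 (all genes: -0.02). Without HA mouse 2, 18 of the 66 were called lower and 3 higher, against 14.8% and 12.2% of all genes. The gene with the smallest p was Trmu, the enzyme that thiolates mitochondrial tRNAs, at 393.5, 439.5 and 428.3 counts in WT, 453.7, 454.1 and 432.3 in EP and 756.5, 546.6 and 834.7 in HA hearts. Here HA mouse 2 was above every WT and EP heart (log2 fold change 0.74 ± 0.16, adjusted p = 0.176, limma; 0.00288 to 0.510 over the alternatives). Abat, an aminotransferase that also serves mitochondrial nucleoside supply, had 961.9, 1045 and 984.8 in WT, 619.1, 1723.5 and 869.1 in EP and 243, 531.5 and 202.6 in HA hearts, and again HA mouse 2 was on the side of the other HA hearts (-1.74 ± 0.41, adjusted p = 0.185, limma; 0.00297 to 0.527 over the alternatives).

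In liver the median of the 66 genes was 0.07 for HA against WT, -0.03 for EP against WT and 0.04 for HA against EP, with 2, 1 and 5 genes at an unadjusted p under 0.05, against 14.1%, 9.74% and 8.62% of all genes. Pnpt1, the mitochondrial polynucleotide phosphorylase, had 1370, 1180 and 1376 counts in WT and 1050, 1134 and 1059.5 in HA livers. Mtg2, a GTPase of ribosome assembly, had 594.7, 643.7 and 653.8 in WT and 799.7, 741.2 and 702.9 in HA livers. Dhx30, an RNA helicase of mitochondrial RNA granules, had 1280, 1680 and 1605 in EP and 1035, 1021 and 682.1 in HA livers. Mterf2 had 93.3, 70.1 and 117.6 in EP and 135.7, 205.4 and 167.4 in HA livers. In EP against WT livers Malsu1 and Mgme1 had log2 fold changes of -0.36 ± 0.14 and 0.27 ± 0.13, and in EP against WT hearts Alkbh1 and Nsun3 had 0.33 ± 0.17 and -0.26 ± 0.14.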
